A study of Mus musculus with 4 samples.

Results

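Bile acid synthesis and signaling were represented by 10 genes of the 8797 listed for each mouse: Cyp7a1, Cyp8b1, Cyp27a1, Cyp7b1, Slc27a5, Baat, Slc10a1, Abcb11, Nr1h4 and Nr0b2. They were taken by gene name, all 10 were listed, and 4 of them (Cyp8b1, Cyp27a1, Slc27a5 and Slc10a1) also had a B6-allele frequency, which was given for 3632 genes in all. The mRNA came from the liver of 4 female F1 hybrids between the inbred strains B6 (C57BL/6J) and MSM (MSM/Ms), which are of different subspecies origin. In 2 of these mice the mother was MSM and the father B6 (MSM-mother mice), in the other 2 the parents were exchanged (B6-mother mice), and all were 5 months old, with no treatment in the labels. Each mouse thus carried 1 chromosome set of each strain, and reads that cover a base differing between the strains could be assigned to an allele. Expression was given in FPKM, the fragments of a gene scaled to transcript length and library size, and the B6-allele frequency was the number of B6-derived reads as a fraction of all reads that could be assigned.

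Bile acids are made from cholesterol in hepatocytes. In the classical pathway CYP7A1 carries out the rate-limiting step and CYP8B1 adds the hydroxyl group that sets the proportion of cholic acid, whereas the alternative pathway starts with CYP27A1 and continues with CYP7B1. Bile acids returning from the intestine activate the nuclear receptor FXR, encoded by Nr1h4, which induces SHP, encoded by Nr0b2, and the export pump encoded by Abcb11, and represses the synthesis genes.

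Among the bile acid genes with a frequency, the largest bias toward MSM that passed the test was at Cyp8b1. The largest toward B6 was at Cyp39a1, for which no promoter was found. A smaller one toward B6 was at Cyp2c70, whose enzyme makes muricholic acids in the mouse. The promoters of Cyp8b1 and Cyp2c70 are shown because both contain the letters CAAAGTCCA (capitals), a sequence bound by the hepatocyte nuclear receptor HNF4. They run from 250 bases before to 50 bases after the annotated start (RefSeq, GRCm38.p6, the assembly named mm10 in the files), on the minus strand at chr9:121916256-121916555 for Cyp8b1 and at chr19:40187237-40187536 for Cyp2c70.
Cyp8b1: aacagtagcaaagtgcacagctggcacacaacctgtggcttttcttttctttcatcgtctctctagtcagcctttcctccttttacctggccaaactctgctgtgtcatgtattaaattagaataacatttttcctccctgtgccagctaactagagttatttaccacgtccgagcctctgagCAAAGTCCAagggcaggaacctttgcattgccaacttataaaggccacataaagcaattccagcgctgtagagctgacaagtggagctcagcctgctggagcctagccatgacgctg
Cyp2c70: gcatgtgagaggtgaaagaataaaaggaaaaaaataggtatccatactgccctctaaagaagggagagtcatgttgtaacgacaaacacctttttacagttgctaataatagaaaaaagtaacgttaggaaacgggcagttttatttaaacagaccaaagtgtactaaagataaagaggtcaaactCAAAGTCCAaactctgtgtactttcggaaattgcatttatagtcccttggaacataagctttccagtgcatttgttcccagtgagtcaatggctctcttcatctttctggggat
The match began 67 bases before the start of Cyp8b1 and 64 bases before that of Cyp2c70, in both cases in the direction of the gene. Searched on both strands, CAAAGTCCA occurred in 156 of 32851 mouse promoters of this length (0.475%). A promoter was found for 6 of the 10 genes, and for 42 of 48 other bile acid genes described further on, among which Abcd3 also held these letters. TCAAGG, the core recognised by the receptor LRH-1 and searched on both strands, occurred in 14.4% of all promoters and in that of Nr0b2 among the 6. The inverted repeat AGGTCANTGACCT recognised by FXR, which reads the same on both strands, occurred in 3 of the 32851 and in none of the 6. None of the 3 motifs contains another. The sequences are of the B6 reference. MSM bases were not compared, and a match describes letters only.

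The 4 livers resembled each other and expressed hepatocyte genes. The FPKM of the listed genes summed to 529024 to 671875 per mouse, and across genes any 2 mice had an r of 0.961 to 0.978 on the log2(FPKM + 1) scale, although genes are not independent replicates. Of the hepatocyte markers 4 of 6 were listed (summed FPKM 12550 to 16462), Alb was not, and Tf was searched by a symbol that is not the mouse one. Of the markers of other cells, 1 of 6 for cholangiocytes (Spp1), 4 of 6 for Kupffer cells (summed FPKM 77.8 to 107), 6 of 6 for sinusoidal endothelial cells (111 to 132), 4 of 6 for stellate cells (101 to 139), 0 of 6 for lymphocytes, 1 of 4 for pancreas (Cela1) and 3 of 4 for intestine were listed. No read counts were given, so the depth behind each value is unknown, and in whole liver less RNA per cell and fewer cells of a type cannot be told apart.

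**Figure D1:**
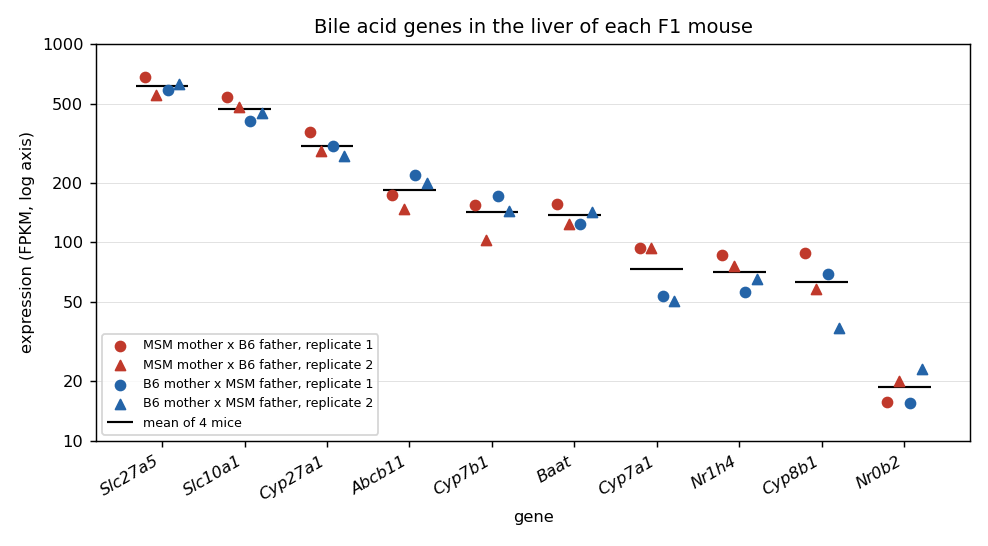
Expression of the 10 bile acid genes in the 4 F1 mice (FPKM, log axis). Each symbol is 1 mouse, colored by cross and shaped by replicate, and each black bar is the mean of the 4 mice. Mean levels ran from 613 FPKM for Slc27a5 to 18.6 FPKM for Nr0b2, and the mice of the crosses lay apart at Cyp7a1.

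Slc27a5 and Slc10a1 were expressed at the highest levels of the 10 genes, and the gene of the repressor SHP at the lowest. Mean FPKM (± SD, n = 4) was 613 ± 57.3 for Slc27a5, which encodes the enzyme that joins bile acids to coenzyme A, and 469.6 ± 55.0 for Slc10a1, which encodes the sodium-dependent uptake transporter NTCP. Then came 307 ± 37.5 for Cyp27a1, 185 ± 30.8 for Abcb11, 143 ± 28.6 for Cyp7b1 and 137 ± 15.7 for Baat, whose enzyme links bile acids to taurine or glycine. Cyp7a1 followed with 73.1 ± 24.1, Nr1h4 with 71.1 ± 13.1 and Cyp8b1 with 63.2 ± 21.4, and Nr0b2 was lowest with 18.6 ± 3.65. In this order, Cyp7b1 and Baat, Cyp7a1 and Nr1h4, and Nr1h4 and Cyp8b1 overlapped in range and each pair held its order in 2 of 4 mice. Abcb11 was above Cyp7b1 in 4 of 4 mice although their ranges overlapped, and the other neighbors did not overlap.

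The 2 enzymes of the classical pathway varied most among the 4 mice. The coefficient of variation was 33.8% for Cyp8b1 and 33.0% for Cyp7a1, against 9.33% for Slc27a5, 11.5% for Baat and values between 11.7% and 20.02% for the other 6 genes. The highest mouse exceeded the lowest 2.38-fold at Cyp8b1, 1.85-fold at Cyp7a1 and 1.24-fold to 1.65-fold at the others, so that 1 of the 10 genes reached 2-fold, as did 5.30% of all 8797 genes. That count rested on single mice, since none of the 10 genes reached 2-fold without MSM-mother replicate 1 or without B6-mother replicate 2.

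Cyp7a1 (chr4:6265612-6275633 in mm10, minus strand, positions from GENCODE M21) had the largest difference of the 10 genes between the reciprocal crosses. It was at 94.0 and 93.9 FPKM in the MSM-mother mice and at 53.8 and 50.7 FPKM in the B6-mother mice. The crosses did not overlap, and the mean of the MSM-mother mice was 1.80 times that of the B6-mother mice. Replicates of a cross lay close together in these values, but less so after scaling the mice to the same FPKM sum. Cyp7a1 was then at 80.9 and 100.6 in the MSM-mother mice and at 58.8 and 51.2 in the B6-mother mice, still without overlap. On the log2(FPKM + 1) scale, which slightly understates fold changes of low genes, the difference (MSM mother minus B6 mother, as everywhere here) was 0.83 ± 0.13 (SE; 95% confidence interval 0.51 to 1.16). With limma the unadjusted p was 0.000786, and after Benjamini-Hochberg adjustment over 8797 genes the adjusted p was 0.266, so Cyp7a1 did not pass the threshold of 0.05. An exact permutation test of 2 against 2 mice cannot go below p = 0.333.

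**Figure D2:**
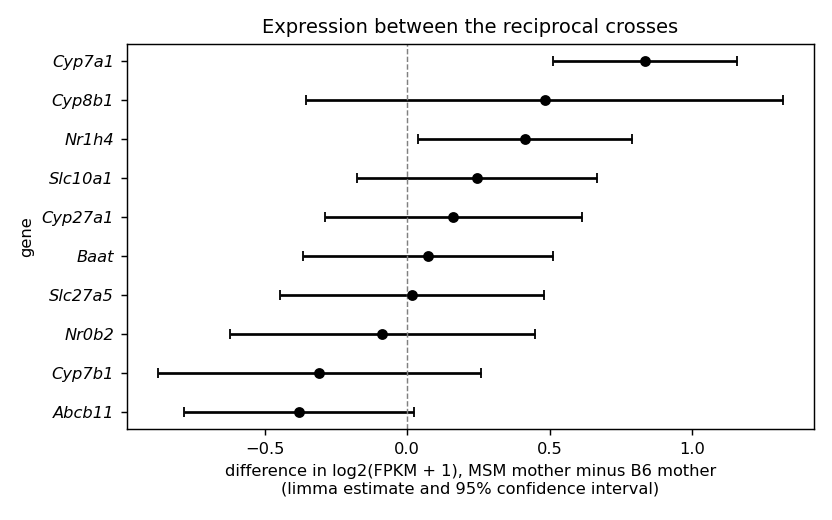
Difference in log2(FPKM + 1) between the reciprocal crosses for each of the 10 genes, MSM mother minus B6 mother, as the limma estimate (point) with its 95% confidence interval (bar) from 2 mice per cross. The interval of Cyp7a1 (0.51 to 1.16) and that of Nr1h4 (0.04 to 0.79) lie above 0, and the other 8 include 0.

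The FXR gene Nr1h4 (chr10:89454234-89533585, minus strand) was the only other of the 10 with an unadjusted p under 0.05. Its levels were 86.8 and 75.9 FPKM in the MSM-mother mice and 56.5 and 65.3 FPKM in the B6-mother mice, without overlap. The log2 difference was 0.41 ± 0.15 (SE; limma adjusted p = 0.538). Its target Nr0b2 (chr4:133553376-133556536, plus strand) was at 15.7 and 20.1 FPKM against 15.5 and 23.1 FPKM, so the crosses overlapped fully (log2 difference -0.09 ± 0.22, limma adjusted p = 0.903). The bile salt export pump gene Abcb11 (chr2:69238282-69342616, minus strand, overlapped on the opposite strand by the antisense gene Gm13613 and the pseudogene Gm13614) lay in the other direction. It was at 173 and 148 FPKM in the MSM-mother mice and at 219 and 199 FPKM in the B6-mother mice, again without overlap (log2 difference -0.38 ± 0.16, limma adjusted p = 0.578).

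Cyp8b1 differed more within the crosses than between them. It was at 88.0 and 58.1 FPKM in the MSM-mother mice and at 69.7 and 37.1 FPKM in the B6-mother mice, with a log2 difference of 0.48 ± 0.34 (95% confidence interval -0.35 to 1.32, limma adjusted p = 0.661). In both crosses replicate 2 was the lower mouse. The organic anion transporter gene Slco1a1 had the same arrangement, with 34.2 and 9.28 FPKM in the MSM-mother mice and 39.8 and 11.8 FPKM in the B6-mother mice, and so did the clock repressor gene Per2 in reverse, with 1.44 and 3.74 against 1.63 and 3.69 FPKM. These 2 genes were picked after their values were seen, and the time of day at collection is not in the labels. Of the 13 clock genes listed of 16, the highest mouse was at least 2-fold above the lowest for 6. In both crosses Per1, Per2, Per3, Ciart, Tef, Hlf, Cry2 and Nr1d2 were higher in replicate 2, and Nr1d1 and Nfil3 lower. Dbp, Cry1 and Clock changed direction between the crosses. The part of the clock genes in the spread of Cyp8b1 was not tested.

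The genes of the alternative pathway, conjugation and uptake passed no test between the crosses. Cyp27a1 (chr1:74713574-74737892, plus strand) was at 359 and 289.9 against 305 and 273 FPKM (0.16 ± 0.18, limma adjusted p = 0.771). Cyp7b1 (chr3:18071950-18243338, minus strand, overlapped by the small nuclear RNA gene Gm23686) was at 154 and 103 against 171 and 144 FPKM (-0.31 ± 0.23, adjusted p = 0.681 in the same limma model). Both genes overlapped between the crosses. Baat (chr4:49489422-49506557, minus strand) was at 157 and 124 against 124 and 142 FPKM. Slc27a5 (chr7:12988346-12998192, minus strand) was at 685 and 552 against 587 and 629 FPKM. Their log2 differences of 0.07 and 0.02 both changed sign when the mice were scaled to the same FPKM sum. Slc10a1 (chr12:80953183-80968705, minus strand) was at 540.2 and 479 FPKM in the MSM-mother mice and at 409.9 and 449 FPKM in the B6-mother mice, which did not overlap (0.25 ± 0.17, limma adjusted p = 0.660).

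In all, limma called 0 of the 10 genes between the crosses, and 4 of 8797 genes (0.0455%), each of which was listed at 0 in both MSM-mother mice. In a file without counts such a 0 can be a failed estimate, and 1 of these genes, Cyp2e1, had B6-allele frequencies in the same mice, so these 4 calls do not show that the mRNA was absent. At an unadjusted p under 0.05 there were 2 of the 10, with 8.87% of all genes. The crosses did not overlap at 4 of the 10, as at 42.4% of all genes, 3 of them with the MSM-mother mice above and 1 with them below. The median log2 difference of the 10 genes was 0.12, beside 0.02 for all genes.

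Levels of liver zonation genes lay apart between the crosses as well, and are given beside Cyp7a1, which is expressed mainly by hepatocytes near the central vein. Of the pericentral genes 7 of 8 were listed. Glul was at 436 and 485 FPKM in the MSM-mother mice and at 334 and 295 FPKM in the B6-mother mice, Oat at 974 and 871 against 499 and 674 FPKM, and Slc1a2 at 116 and 103 against 73.6 and 68.2 FPKM. Axin2 was lower in the MSM-mother mice, with 2.07 and 2.22 against 3.20 and 3.12 FPKM. Cyp2e1 was listed at 0 in both MSM-mother mice and at 4876 and 6541 FPKM in the B6-mother mice, although B6-allele frequencies of 0.516 and 0.546 were given for it in the former. It was the 1 pericentral gene called by limma, and 5 of the 7 had an unadjusted p under 0.05, 3 of them higher in the MSM-mother mice. The 8 periportal genes included 0 called and 4 with an unadjusted p under 0.05, namely Sds, Pck1, Ass1 and Arg1, all higher in the MSM-mother mice (Arg1 1084 and 1239 against 748 and 885 FPKM). Cdh1 lay lower in these mice without overlap (2.87 and 1.27 against 4.23 and 2.97 FPKM), and Cyp2f2, Hal and Gls2 had ratios of the cross means of 1.05, 1.03 and 1.07. The clock gene Nr1d1, whose protein takes part in the daily rhythm of bile acid synthesis, was at 37.7 and 21.5 against 66.7 and 48.2 FPKM, and was the 1 of 13 clock genes with an unadjusted p under 0.05. None of the 13 was called. The 6 sinusoidal endothelial markers all had a lower mean log2 level in the MSM-mother mice, 4 of them without overlap, with 0 called, 1 at an unadjusted p under 0.05 and summed FPKM of 118 and 111 against 128 and 132. All 4 listed Kupffer cell markers were lower in the MSM-mother mice, with 0 called, 2 at an unadjusted p under 0.05 and summed FPKM of 85.4 and 77.8 against 104 and 107. Of the 4 stellate cell markers listed, 2 had a higher and 2 a lower mean log2 level in the MSM-mother mice. Among them Dcn was higher without overlap (88.9 and 73.7 against 58.7 and 67.5 FPKM). Of the 4 hepatocyte markers listed, 3 were higher and 1 lower, with Apoa1 and Ttr higher without overlap. In both lists 0 were called. Over all genes, the crosses did not overlap at 42.4%, an unadjusted p under 0.05 occurred at 8.87%, and limma called 0.0455%. The part of the zonation, clock and cell type genes in the difference at Cyp7a1 was not tested.

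To separate the strain of an allele from the parent it came from, B6-allele frequencies were compared with equal use of both alleles (0.5) and between the crosses. Cyp8b1 (chr9:121914356-121916305, minus strand, a single exon with no overlapping gene) had most of its allele-assigned mRNA reads from the MSM allele in all 4 mice. Its B6-allele frequency was 0.164 and 0.145 in the MSM-mother mice and 0.247 and 0.239 in the B6-mother mice. Averaged over the reciprocal hybrids it was 0.199 ± 0.0519 (SD, n = 4), just inside the limit of 0.2 that the study set for MSM-biased genes, which 1.35% of genes with a frequency met. In its paper the study reported more MSM-biased and more B6-biased genes at its limits than were counted here. At Cyp8b1 the log2 odds of the B6 allele were -2.05 ± 0.06 (SE; 95% confidence interval -2.22 to -1.87) and differed from 0 (limma, adjusted p = 0.00174). Under the alternatives this adjusted p ran from 0.00062 to 0.0362. Within a cross the SD of the Cyp8b1 frequency was 0.0101, where the median gene had 0.0253. Cyp8b1 was the 1 of the 4 genes called, and limma called 36.2% of the 3632 genes in either direction and 13.6% toward MSM.

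**Figure D3:**
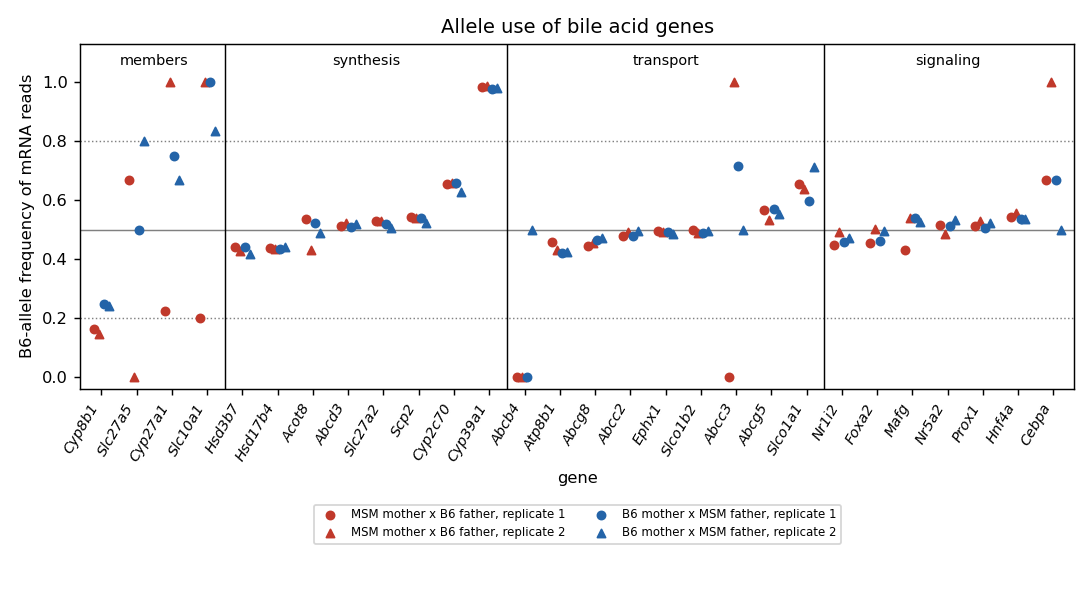
B6-allele frequency of mRNA reads for the 4 bile acid genes of the set (members) and other bile acid genes, by list. Each symbol is 1 mouse, the solid line marks equal use (0.5), and the dotted lines mark the study's limits for biased genes (0.8 and 0.2). Cyp8b1 lies near 0.2 and Cyp39a1 near 1 in every mouse, and the mice scatter widely at Slc27a5, Cyp27a1, Slc10a1, Abcc3, Abcb4 and Cebpa.

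The frequency of Cyp8b1 was lower with an MSM mother in each pair of mice that could be formed across the crosses. The cross means were 0.154 and 0.243, a difference of -0.0887, and the crosses did not overlap. In log2 odds the difference was -0.82 ± 0.12 (95% confidence interval -1.17 to -0.47), which did not pass adjustment over 3632 genes (limma, adjusted p = 0.626). Frequencies without overlap between the crosses occurred at 1 of the 4 genes and at 34.3% of all genes, and an unadjusted p under 0.05 at 1 of the 4 and at 5.23% of all genes. After adjustment limma called 0 of the 4 and 0.0826% of all genes. Relative to the limit of 0.2, both MSM-mother mice lay below it and both B6-mother mice above it.

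Multiplying the FPKM of Cyp8b1 by the frequency gave the part of its level that belonged to each allele, on the assumption that reads without a strain difference divide as the others do. The MSM allele accounted for 73.6 and 49.6 FPKM in the MSM-mother mice and for 52.5 and 28.2 FPKM in the B6-mother mice. The B6 allele accounted for 14.4 and 8.42 FPKM in the former and for 17.2 and 8.86 FPKM in the latter. For each B6 read there were 5.11 and 5.90 MSM reads in the first cross and 3.05 and 3.18 in the second. The spread among mice lay in both alleles, with the highest mouse 2.61-fold above the lowest for the MSM allele and 2.05-fold for the B6 allele.

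**Figure D4:**
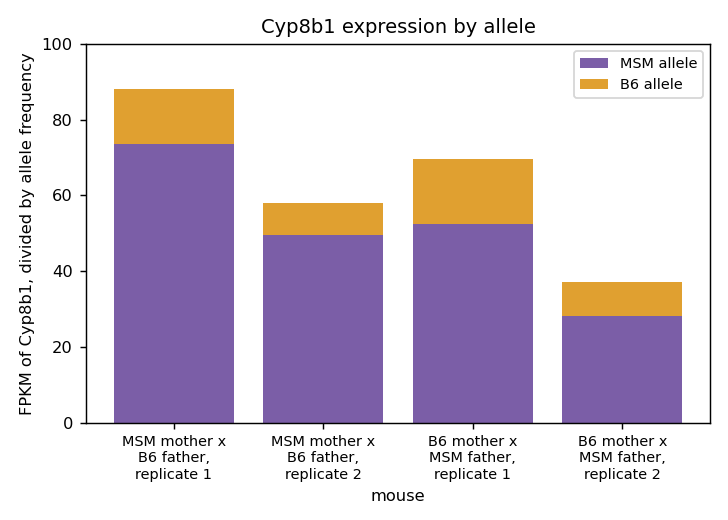
Expression of Cyp8b1 in each of the 4 mice (FPKM), with the bar divided into MSM-allele and B6-allele parts by the B6-allele frequency. The MSM part is the larger in every mouse (28.2 to 73.6 FPKM), and the B6 part runs from 8.42 to 17.2 FPKM.

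The other 3 frequencies were erratic. Cyp27a1 was at 0.222 and 1 in the MSM-mother mice and at 0.75 and 0.667 in the B6-mother mice, Slc27a5 at 0.667 and 0 against 0.5 and 0.8, and Slc10a1 at 0.2 and 1 against 1 and 0.833. The range over the 4 mice was 0.778 to 0.8, and 3 of the 4 genes thus had a range of at least 0.5, which 2.09% of all genes had. Their means of 0.660, 0.492 and 0.758 had SDs of 0.324, 0.350 and 0.380, although these genes were among the most highly expressed of the 10. Tests against equal use gave adjusted p of 0.428, 0.664 and 0.239 (limma), and none reached the study's limit for B6-biased genes, which 1.84% of all genes met. Cyp27a1 passed (log2 odds 3.96, limma adjusted p = 0.0350) when MSM-mother replicate 1 was left out, so a single mouse decided that call. At each of these 3 genes mice lay on both sides of 0.5. The values are simple fractions, such as 0, 0.2, 0.5, 0.75, 0.8 and 1, which also arise when few reads are assigned. The number of allele-assigned reads behind a frequency was not given, so this was not tested. Cyp7a1, Cyp7b1, Baat, Abcb11, Nr0b2 and Nr1h4 had no frequency, so the cross difference of Cyp7a1 could not be divided by allele.

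Other genes of the pathway were taken as 3 lists. Of these, 41 of 48 were listed, and limma called 0 of the 41 between the crosses in expression, beside 0.0455% of all genes. At an unadjusted p under 0.05 there was 1, beside 8.87% of all genes. This gene was Cyp39a1, which encodes the oxysterol 7-alpha-hydroxylase of bile acid synthesis. It was at 12.5 and 11.1 FPKM in the MSM-mother mice and at 7.42 and 8.99 FPKM in the B6-mother mice (0.48 ± 0.13, limma adjusted p = 0.452). The crosses did not overlap at 18 of the 41, as at 42.4% of all genes. Of the 41, 15 had a higher and 26 a lower mean log2 level in the MSM-mother mice. Their median log2 difference was -0.06.

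Among these pathway genes, allele use differed from 0.5 in 11 of the 25 that had a frequency, 6 toward B6 and 5 toward MSM. Over all genes with a frequency the share was 36.2%. When the log2 odds of each mouse were shifted to a median of 0, 8 were called, 3 toward B6 and 5 toward MSM. With any 1 mouse left out, the count was 2 or 3: Cyp2c70 and Cyp39a1 without MSM-mother replicate 2, these and Cebpa without MSM-mother replicate 1, Cyp39a1, Abcb4 and Slco1a1 without B6-mother replicate 1, and Cyp39a1, Cyp2c70 and Abcb4 without B6-mother replicate 2. Only Cyp39a1 among the 25 was called under every alternative tried. Between the crosses, limma called 0 of the 25 frequencies, and 1 (Cyp39a1) had an unadjusted p under 0.05. Over all genes with a frequency these shares were 0.0826% and 5.23%.

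Of the synthesis list 13 of 14 genes were listed and 8 had a frequency, of which 5 were called, 3 toward B6 and 2 toward MSM. Cyp39a1 (chr17:43667425-43751431, overlapped by the small nuclear RNA gene Gm25783) was almost entirely B6-derived, with frequencies of 0.983 and 0.987 in the MSM-mother mice and 0.975 and 0.979 in the B6-mother mice (log2 odds 5.74 ± 0.10, limma adjusted p = 0.000546). Its level from the B6 allele was 7.24 to 12.3 FPKM and that from the MSM allele 0.145 to 0.211 FPKM. It was the 1 of the 25 genes at or above 0.8. Cyp2c70 (chr19:40153353-40187333, minus strand), whose promoter is shown above, had frequencies of 0.655 and 0.659 against 0.658 and 0.628, so the mice of both crosses lay close together (log2 odds 0.89 ± 0.06, limma adjusted p = 0.00523, but 0.0509 without B6-mother replicate 1). Abcd3, the third gene with the same letters in its promoter, stayed between 0.509 and 0.521 and was not called. The remaining calls were small, namely Scp2 (mean frequency 0.535, limma adjusted p = 0.0463), Hsd17b4 (0.436, adjusted p = 0.0130) and Hsd3b7 (0.431, adjusted p = 0.0163), which encode enzymes of side-chain shortening and of the sterol ring. Hsd3b7 overlaps the genes Gm49388 and 9430064I24Rik. The most highly expressed genes of the list were Akr1c6 (1001 ± 157 FPKM), Scp2 (880.3 ± 147) and Slc27a2 (745 ± 65.1; SD, n = 4 each). Akr1c6 and Cyp2c70 belong to families of similar genes, and because each read was placed at 1 position at most, their values are uncertain.

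Of the transport list 10 of 14 genes were listed and 9 had a frequency, of which 4 were called. Slco1a1 (mean frequency 0.650, limma adjusted p = 0.0261) and Abcg5 (0.555, adjusted p = 0.0328) were used more from the B6 allele, and Abcg8 (0.458, adjusted p = 0.0282) and Atp8b1 (0.433, adjusted p = 0.0167) more from the MSM allele. Abcg5 and Abcg8, which encode the partners of the sterol exporter, overlap on opposite strands (chr17:84658234-84683011 and chr17:84676302-84700333), and Slco1a1 has close relatives. The phospholipid exporter gene Abcb4 stood at 0 in 3 mice but at 0.5 in B6-mother replicate 2, and its mean frequency of 0.125 was not called (limma adjusted p = 0.0633), and was the 1 of the 25 at or below 0.2. Abcc3, the basolateral efflux pump gene, ran from 0 to 1. The most highly expressed were Slco1b2 (499 ± 83.7 FPKM), Ephx1 (244 ± 31.4) and Abcc3 (96.2 ± 12.1), and Slco1a1 was the only gene of the 41 with a 2-fold range, 4.28-fold in all.

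Of the signaling list 18 of 20 genes were listed and 8 had a frequency. The nuclear receptor gene Hnf4a was used slightly more from the B6 allele (0.542 and 0.555 against 0.536 and 0.535, limma adjusted p = 0.0300). Nr1i2, which encodes the receptor PXR, had a mean frequency of 0.467 and Cebpa the highest of the list (0.708), and neither was called. Cebpa ranged from 0.5 to 1. The highest levels were those of Cebpa (182 ± 30.6 FPKM), Hnf4a (172 ± 24.3) and Nr1i3 (120.4 ± 14.3), the gene of the receptor CAR.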

How the data were processed

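The labels give 4 female F1 mice, 2 per reciprocal cross, and the design calls them biological replicates. Per the study's methods, the authors used Trim Galore for trimming and TopHat2 for alignment to an mm10 genome in which strain differences were masked, with the strand of the directional poly(A) library set and at most 1 position per read, and deposited FPKM per gene, although the program that gave the FPKM is not given in the sources used here. The authors separated alleles with SNPsplit, counted them with Cuffdiff and deposited the B6-allele frequency as a fraction, which a column heading of the authors' own table of these values limits to genes with more than 10 allele-discriminating reads. Tool versions are not given in the sources used here.

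Expression between the crosses was tested on log2(FPKM + 1) with a variance trend. A minimum mean FPKM of 1 removed no gene. Frequencies were limited to 0.01 to 0.99, turned into log2 odds and tested against 0 and between the crosses. All tests used limma 3.58.1 in R 4.3.3, were two-sided and were adjusted over all genes with a threshold of 0.05. The script was tested on simulated data. The deposited values hold no counts, so single frequencies carry no interval. GENCODE M21 gave the positions and RefSeq the promoters. Tables and plots were made with Python 3.11.15, pandas 2.3.3, numpy 2.4.6 and matplotlib 3.10.9. The genes named are the 10 genes, and of each other list those called, the 3 with the highest mean FPKM and the 2 with the lowest and highest mean frequency. A gene that this rule covers is not reported here. Values of clock, zonation and cell type genes are given beside them. The 10 genes and all lists were chosen with earlier results of these data known. Another pseudocount, FPKM filters, scalings, frequency limits, a block on replicate number and leaving out each mouse were tried as alternatives.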

Additional observations from a re-analysis of the deposited data

How the results depend on the processing

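With 2 mice per cross and no read counts, precision rests on the spread between mice, and leaving out a mouse leaves 1 mouse in a cross, assumed to vary like the others. The Cyp8b1 and Cyp39a1 allele calls were kept under all alternatives, and no call reversed. Nothing in the labels or methods ties equal replicate numbers to a litter or day. Over all genes, deviations of same-numbered mice correlated by 0.00375 for expression and 0.109 for frequency. Most of the 13 clock genes differed between replicate numbers in the same direction in both crosses. The share of all genes that did so was not counted. With the replicate block, 1 of the 10 genes was called between the crosses (Cyp7a1, limma adjusted p = 0.0155). Its log2 difference stayed at 0.83, but its SE was 0.22 in place of 0.13. With 4 mice the block leaves 1 residual degree of freedom, so the smaller p does not reflect a more precise estimate. The block also called 285 of all genes between the crosses (133 higher with an MSM mother) in place of 4 (0 higher). Among them were 3 of 13 clock genes (Ciart, Nr1d1, Per1), 2 of 8 periportal genes (Pck1, Cdh1) and 1 Kupffer cell marker (Cd68). For allele use, 3 of the other bile acid genes were called (Cyp2c70, Cyp39a1, Hsd3b7) in place of 11. Over all genes, 775 in place of 1316 were then called for allele use. With each mouse left out in turn, allele calls among the 10 genes numbered 1 to 2 and among the others 2 to 3, genes of the 10 with a 2-fold range numbered 0 to 1, and over all genes 13 to 23 were called between the crosses and 181 to 514 for allele use. The cause was not tested. The adjusted p of Cyp7a1 ran from 0.0155 to 0.873 and its log2 difference from 0.71 to 0.88. Scaling the mice to the same FPKM sum called 20 genes between the crosses (4 higher), moved the median log2 difference of all genes from 0.02 to -0.10, and turned the sign at Baat and Slc27a5. Calls of single named genes were lost in 47 instances and gained in 2, and 238 kept their side of the threshold.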
